A study of Mus musculus with 40 samples.

Results

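The 35 autophagy genes described here were taken by symbol from a table of read counts for 39056 mouse genes, and all 35 were found and passed the filter on low counts. They were measured in cultured oligodendrocyte-lineage cells under thapsigargin, under interferon-gamma (IFN-gamma) and without treatment. Progenitors had been immunopanned, that is captured on antibody-coated plates, from brains of wild-type C57BL/6 mouse pups labelled as 6 to 7 days old, then expanded and left to begin differentiating before plates were assigned to a treatment at random. Thapsigargin blocks the pump that loads calcium into the endoplasmic reticulum and so stresses that organelle; IFN-gamma is a cytokine released by T cells and natural killer cells. The groups were thapsigargin at 1 and 8 h (labelled as 200 uM), IFN-gamma at 1, 8, 24 and 48 h (200 U/ml), and untreated cells at 1, 8, 24 and 48 h, with 4 RNA-seq libraries in each of the 10 groups. No transgene or deleted gene is named in the labels, and the tissue is labelled as whole brain while the growth protocol names cortices. The labels do not say whether the 4 libraries of a group came from separate cultures or animals, so p-values measure only the spread between these libraries.

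Macroautophagy encloses cytoplasm in a double membrane, the autophagosome, and delivers it to the lysosome for breakdown. The ULK1 kinase complex starts the process, and a class III PI3-kinase complex marks the site with the lipid PI3P. PI3P-binding WIPI proteins and the lipid carriers ATG9 and ATG2 then build the membrane, while conjugation enzymes attach proteins of the ATG8 family (LC3 and GABARAP) to it. ATG4 proteases trim the ATG8 proteins, cargo receptors link ATG8 proteins to what is to be degraded, and the transcription factors TFEB and TFE3 switch on lysosomal and autophagy genes. In oligodendrocytes, which make the myelin sheaths of the central nervous system, autophagy is studied for its part in differentiation and myelin turnover. Transcript levels, the quantity measured here, do not report how fast autophagosomes form or are degraded.

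The libraries held 13165483 to 22651092 reads on genes. Levels below are CPM, read counts scaled by TMM to a common library size, a call is an adjusted p under 0.05 by edgeR's quasi-likelihood test over 15135 genes, and fold changes are log2 values ± SE. The 7 lineage markers used (Olig1, Olig2, Sox10, Pdgfra, Cspg4, Enpp6 and Mbp) summed to 2598 to 7029.8 CPM per library, so the labelled cell type was present throughout. Of the markers of other cell types, microglial, endothelial and fibroblast sums were at most 18.6 CPM, and Cldn5 and Aif1 reached no more than 0.09 and 0.21 CPM in any library. Y-linked transcripts were under 50 CPM in 8 IFN-gamma libraries (2 at each time), in replicate 2 of both thapsigargin groups, and in 0 untreated libraries. These libraries of low Y-linked level had 319.5 to 729 CPM of the X-linked transcript Xist, against at most 250 CPM in the rest. Replicate 2 of IFN-gamma at 1 h had 23.3% of its reads on one gene, AY036118. Replicate 2 of the untreated 48 h group had a lineage marker sum of 5167 CPM, against 6111 to 7029.8 CPM in the other 3 libraries of that group.

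Per 1000 exon bases, most of the highest levels among the members in untreated cells at 8 h were those of ATG8 genes. The bases are the union of all annotated exons of a gene, not the length of its expressed transcript. A gene with many annotated exon bases therefore reads lower on this scale. Gabarap had the highest level, 76.6 ± 5.46 CPM per 1000 exon bases (SD, n = 4), followed by Gabarapl1 at 55.7 ± 3.69, the cargo receptor Nbr1 at 40.9 ± 3.66, Map1lc3a at 34.2 ± 5.52 and Gabarapl2 at 28.8 ± 2.11. Map1lc3b, which encodes the LC3B protein commonly used to mark autophagosomes, stood at 17.2 ± 1.66 on the same scale. Becn1 at 22.7, Atg3 at 21.4 and Ulk2 at 18.2 lay above it, and its exons held 7517 bases, against 1844 for Gabarap. At the lower end were Atg13 at 3.46 ± 0.539, Wipi1 at 2.58 ± 0.265 and Tfeb at 1.34 ± 0.0795. The intervals of mean ± SD were apart between Gabarap, Gabarapl1 and Nbr1, and overlapped between Nbr1 and Map1lc3a and between Map1lc3a and Gabarapl2. These orders are descriptions with no test.

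The change after thapsigargin at 8 h was broad. At that time 20 of the 35 members rose and 8 fell, while 60.6% of all 15135 genes were called (29.6% higher and 31% lower), so being called was common among genes of every kind. The median log2 fold change of the members was 0.20, against -0.01 over all genes, and the 2 groups of libraries did not overlap in 26 of the 35 members, against 56.7% of all genes. The members that moved most were Atg13, Wipi1, Nbr1 and Rb1cc1, with folds of 4.78, 2.34, 1.93 and 1.77.

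**Figure D1:**
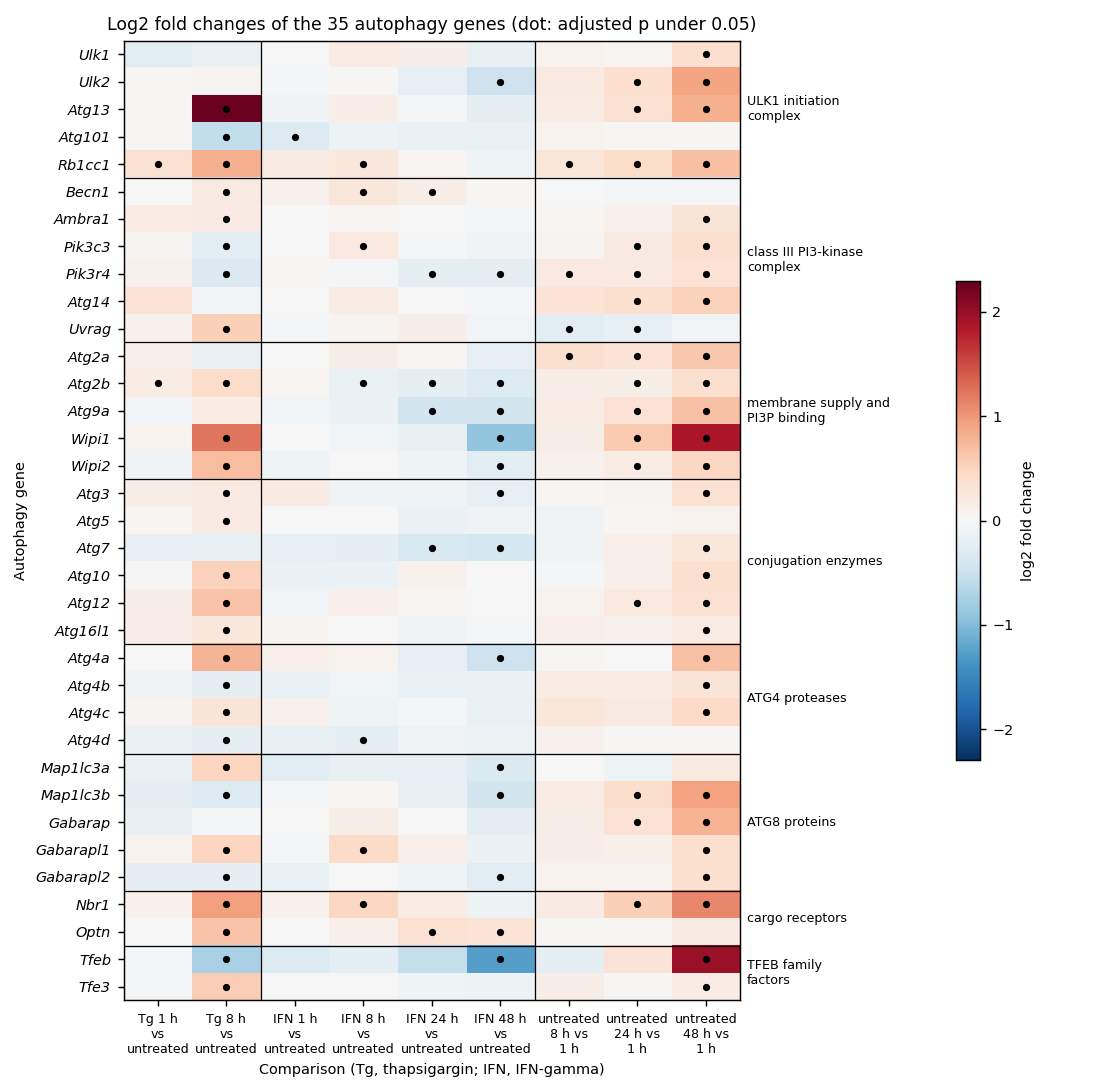
Log2 fold changes of the 35 members (rows, grouped by role) in 9 comparisons (columns), as a colour scale, with a dot where the adjusted p was under 0.05. The column of thapsigargin at 8 h holds 28 dots, with Atg13 the highest value at 2.26 ± 0.13, and the column of untreated cells at 48 h against 1 h holds 28 dots, all of them higher at 48 h.

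Within the ULK1 initiation complex, 2 of 5 members rose and 1 fell at 8 h of thapsigargin. Atg13, the subunit that ties ULK1 to the rest of the complex, had 74.6, 73.4, 66.5 and 73.8 CPM in thapsigargin libraries, against 13.9, 15.2, 12.97 and 18.3 CPM in untreated libraries at 8 h. Every thapsigargin library was above every untreated one, replicate 3 being the lowest of the treated libraries, and the log2 fold change was 2.26 ± 0.13 (adjusted p = 2.71e-17). Rb1cc1, which encodes the scaffold FIP200, had 181, 193, 182 and 188 CPM under thapsigargin and 103, 98.3, 105 and 113 CPM untreated. Its groups did not overlap, with a log2 fold change of 0.83 ± 0.07 (adjusted p = 3.75e-12). Atg101, which stabilises ATG13, fell, at 16.7 ± 0.546 CPM under thapsigargin and 24.6 ± 3.095 CPM untreated (SD, n = 4 each), with -0.56 ± 0.08 (adjusted p = 1.18e-07) on the log2 scale. The kinase gene Ulk1 had 28.9, 28.8, 23.6 and 27.2 CPM under thapsigargin and 28.5, 31.5, 30.4 and 29.7 CPM untreated, and was not called (log2 fold change -0.15 ± 0.08, 95% interval -0.32 to 0.02). Its relative Ulk2 was not called either, at 0.06 ± 0.09.

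The class III PI3-kinase complex was divided, with 3 of 6 members higher and 2 lower. Uvrag, a subunit linked to later steps, rose by 0.56 ± 0.07 on the log2 scale, Becn1, the scaffold subunit beclin 1, by 0.21 ± 0.05, and Ambra1, a regulator of beclin 1, by 0.19 ± 0.07. The catalytic subunit gene Pik3c3 had a log2 fold change of -0.26 ± 0.06 and the regulatory subunit gene Pik3r4 one of -0.33 ± 0.06, both called lower. Atg14, which directs the complex to autophagosome formation, was not called (-0.07 ± 0.12). The exons of Becn1 share 43.9% of their bases with Cntd1, and whether counting used strand is not given, so reads of the 2 genes cannot be told apart there.

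Among the 5 genes for membrane supply and PI3P binding, 3 rose and 0 fell. Wipi1, a PI3P-binding protein recruited to forming autophagosomes, had 27.8, 25.4, 29.9 and 23.8 CPM under thapsigargin, against 12.6, 11.6, 9.798 and 11.5 CPM untreated. All 4 thapsigargin libraries lay above all 4 untreated libraries, with a log2 fold change of 1.23 ± 0.20 (adjusted p = 3.37e-06). Wipi2, which recruits the ATG16L1 complex to the membrane, had 179, 169, 169 and 169 CPM under thapsigargin, against 105, 109.6, 97.1 and 106 CPM untreated. Replicate 1 was the highest of the thapsigargin libraries, and the log2 fold change was 0.71 ± 0.06 (adjusted p = 1.70e-13). Atg2b, a lipid transfer protein, rose by 0.41 ± 0.05, while Atg2a (-0.14 ± 0.09) and the scramblase gene Atg9a (0.17 ± 0.10) were not called.

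Of the 6 conjugation enzymes, 5 rose and 0 fell. Atg12, a ubiquitin-like protein joined to ATG5, had 81.4, 87.1, 84.6 and 81.6 CPM under thapsigargin and 54.1, 57.8, 45.6 and 53.5 CPM untreated, with no overlap and a log2 fold change of 0.66 ± 0.07 (adjusted p = 2.92e-10). The change was 0.54 ± 0.14 for Atg10, the enzyme that joins ATG12 to ATG5. It was 0.24 ± 0.06 for Atg16l1, 0.20 ± 0.07 for Atg3, the enzyme that passes ATG8 proteins to lipid, and 0.19 ± 0.07 for Atg5. Without untreated replicate 4 the call for Atg5 was lost (adjusted p = 0.0594). Atg7, the activating enzyme of both conjugation systems, was not called (-0.17 ± 0.09).

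The 4 ATG4 proteases split evenly, with 2 higher and 2 lower. Atg4a, which prefers GABARAP-type proteins, had 20.7, 19.4, 20.8 and 21.3 CPM under thapsigargin, against 14.4, 11.6, 12.2 and 9.28 CPM untreated, without overlap and with a log2 fold change of 0.79 ± 0.12 (adjusted p = 4.85e-07). Atg4c rose by 0.29 ± 0.09. Atg4d (-0.23 ± 0.06) and Atg4b (-0.22 ± 0.09), the most active family member on LC3, were called lower, but the call for Atg4b was lost in 7 of the 8 fits that left out 1 library (adjusted p 0.0697 to 0.178; it held only without untreated replicate 3). Exons of Atg4d share 19.3% of their bases with Kri1.

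The ATG8 proteins themselves also split, with 2 of 5 higher and 2 lower. Gabarapl1 had 159 ± 6.96 CPM under thapsigargin, against 112 ± 7.42 CPM untreated (SD, n = 4 each), with 0.50 ± 0.06 (adjusted p = 2.84e-08) on the log2 scale, and Map1lc3a rose by 0.49 ± 0.11. Map1lc3b had 106, 97.9, 104 and 106 CPM under thapsigargin, against 133, 134, 111 and 139 CPM untreated. All thapsigargin libraries were below all untreated libraries, a log2 fold change of -0.32 ± 0.09 (adjusted p = 0.00321). Gabarapl2 was called lower at -0.22 ± 0.09, a call lost in 7 of the 8 fits that left out 1 library (adjusted p 0.0579 to 0.196; it held only without thapsigargin replicate 1). Gabarap was not called (-0.05 ± 0.11).

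Both cargo receptors among the members rose. Nbr1, a receptor for ubiquitin-tagged cargo, had 557, 537, 542 and 536 CPM under thapsigargin, against 281, 286, 248 and 309 CPM untreated, with no overlap and a log2 fold change of 0.95 ± 0.11 (adjusted p = 2.38e-09). Optn, the receptor optineurin, rose by 0.65 ± 0.09. The related receptor gene Sqstm1, which encodes p62 and is not one of the 35 members, had 343, 359.6, 352 and 331 CPM under thapsigargin and 129, 133, 104 and 128 CPM untreated, a log2 fold change of 1.49 ± 0.10 (adjusted p = 1.09e-14). Among the transcription factors, Tfe3 rose by 0.57 ± 0.07. Tfeb had 3.74, 4.91, 5.02 and 4.66 CPM under thapsigargin and 8.16, 7.82, 7.29 and 7.21 CPM untreated, with no overlap. Its log2 fold change was -0.74 ± 0.31 (adjusted p = 0.0375), and the call was lost when any 1 of the 8 libraries was left out (adjusted p 0.0563 to 0.117). It was also lost without the libraries of low Y-linked level and with only library numbers 1 to 20 or 21 to 40. The call held with DESeq2 and in a fit of only the groups compared. The SE of Tfeb rests on a spread estimated over all 10 groups, which was largest in untreated cells at 48 h.

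**Figure D2:**
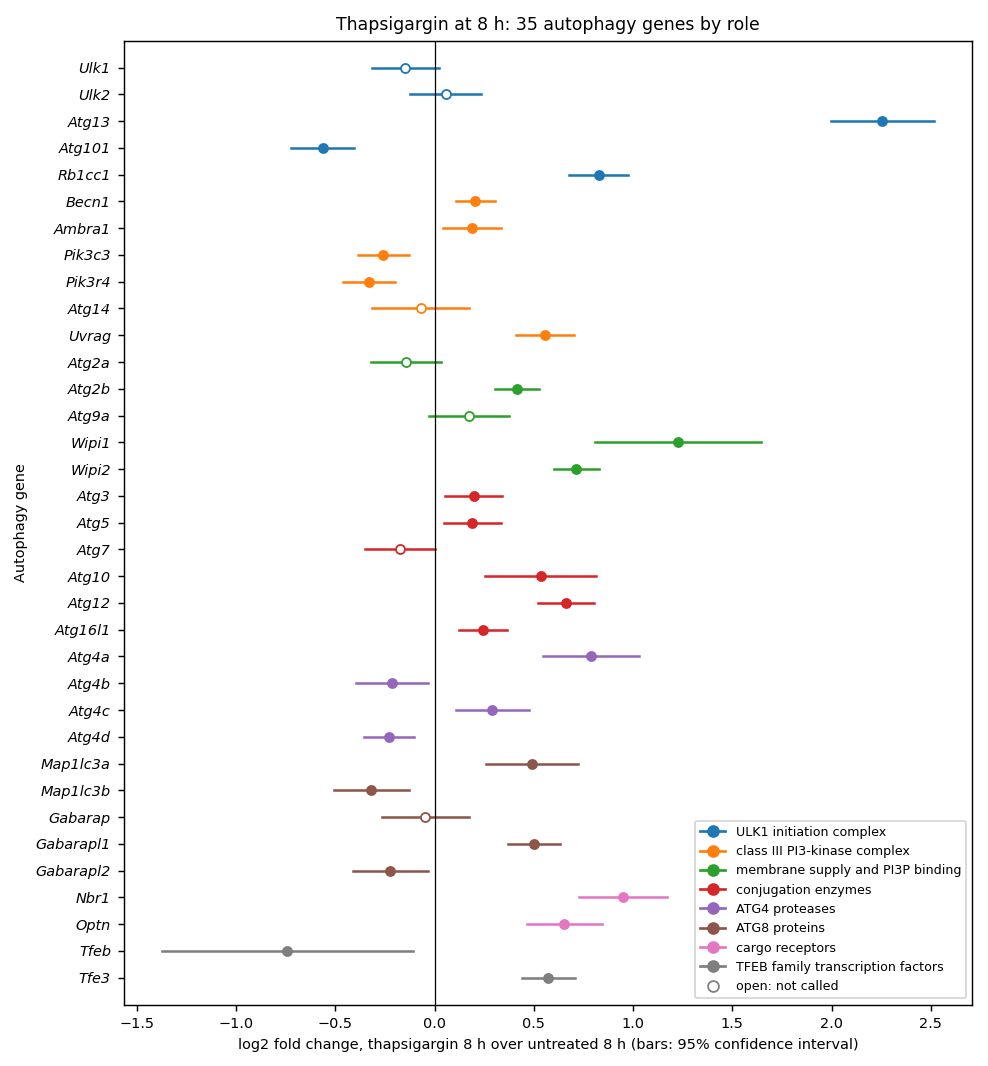
Log2 fold change of each of the 35 members in thapsigargin against untreated libraries at 8 h, with 95% confidence intervals, filled where called and open where not (n = 4 libraries per group). Atg13 at 2.26 stands apart from Wipi1 at 1.23 and Nbr1 at 0.95, and Tfeb at -0.74 is the lowest and has a wide interval.

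Lineage markers moved in the same libraries. They summed to 2598 to 2827 CPM under thapsigargin at 8 h and 5728 to 6124 CPM untreated, and 4 of 7 were called lower, among them Olig1 at -1.95 and Pdgfra at -1.39. Neuron markers summed to 187 to 209 CPM under thapsigargin and 58.5 to 71.9 CPM untreated, with 3 of 5 tested genes called higher (Gad1, Snap25 and Tubb3) and 1 lower (Syt1), while Rbfox3 and Slc17a7 reached at most 1.27 and 0.98 CPM in any library. Of 4 astrocyte markers tested, 0 were called in either direction, and their sums were 139 to 177 CPM under thapsigargin and 108 to 142 CPM untreated. The part of these marker shifts in the changes of the members was not tested, and in bulk samples fewer cells of a type and less RNA per cell cannot be told apart. Without thapsigargin replicate 2 alone, 25 members were called (20 higher and 5 lower), and without all libraries of low Y-linked level, of both treatments, 26 (21 higher and 5 lower). In these fits 8734 of 15421 and 8791 of 15584 genes were called.

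Promoter sequence is shown for 5 chosen members. Atg13, Wipi1 and Nbr1 rose most under thapsigargin at 8 h, and Nbr1 and Gabarapl1 under IFN-gamma at 8 h. Gabarap had the highest level per exon base and no call after thapsigargin. The choice includes every member window with the letters TTCNNNGAA, so the printed windows do not show how common those letters are. Another window of Nbr1 is not printed. RefSeq windows of 300 bases on GRCm38.p6 matched 29 of the 35 members, giving 35 windows in all. Printed here, 5′ to 3′ on the gene's own strand, are the 250 bases before the annotated start and the 10 after it, with matches in capitals to TTCNNNGAA, the letters of a gamma-activated site bound by STAT factors, or to the core of an interferon-stimulated response element (GAAA, any 2 bases, GAAA). The windows are Atg13 at chr2:91710583-91710842 (minus strand), Wipi1 at chr11:109611380-109611639 (minus strand), Nbr1 at chr11:101552404-101552663 (plus strand), Gabarapl1 at chr6:129532942-129533201 (plus strand) and Gabarap at chr11:69991120-69991379 (plus strand).
Atg13: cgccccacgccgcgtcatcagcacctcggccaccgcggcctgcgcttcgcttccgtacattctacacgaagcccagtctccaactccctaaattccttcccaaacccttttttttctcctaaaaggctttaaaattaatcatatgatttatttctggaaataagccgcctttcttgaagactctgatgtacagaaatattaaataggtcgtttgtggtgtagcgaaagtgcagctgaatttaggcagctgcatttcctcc
Wipi1: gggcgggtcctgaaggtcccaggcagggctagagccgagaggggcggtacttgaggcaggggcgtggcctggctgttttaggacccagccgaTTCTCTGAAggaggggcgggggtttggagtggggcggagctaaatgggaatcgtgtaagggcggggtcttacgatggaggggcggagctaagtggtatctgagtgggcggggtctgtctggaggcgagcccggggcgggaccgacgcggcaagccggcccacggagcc
Nbr1: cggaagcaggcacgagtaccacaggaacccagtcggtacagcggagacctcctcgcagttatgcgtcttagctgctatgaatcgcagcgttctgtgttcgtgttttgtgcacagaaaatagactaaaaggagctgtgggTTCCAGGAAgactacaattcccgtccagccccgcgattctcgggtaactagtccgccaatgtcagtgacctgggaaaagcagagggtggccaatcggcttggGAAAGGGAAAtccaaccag
Gabarapl1: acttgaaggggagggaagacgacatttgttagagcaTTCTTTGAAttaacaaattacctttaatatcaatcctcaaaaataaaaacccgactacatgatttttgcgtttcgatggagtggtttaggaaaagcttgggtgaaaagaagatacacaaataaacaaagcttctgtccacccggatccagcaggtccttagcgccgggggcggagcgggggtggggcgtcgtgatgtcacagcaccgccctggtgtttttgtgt
Gabarap: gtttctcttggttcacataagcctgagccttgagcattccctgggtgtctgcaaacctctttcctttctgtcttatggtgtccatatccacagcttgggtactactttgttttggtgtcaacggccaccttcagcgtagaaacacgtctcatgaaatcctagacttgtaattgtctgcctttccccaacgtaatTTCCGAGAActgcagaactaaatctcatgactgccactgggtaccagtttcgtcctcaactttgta
Searching both strands, TTCNNNGAA was found in 4 of the 35 member windows (11.4%), those of Wipi1, Nbr1, Gabarapl1 and Gabarap, against 8.3% of 32851 windows of all genes. The interferon-stimulated response element core was found in 1 member window, that of Nbr1, against 3.44% of all windows. The E-box CACGTG was in 4 member windows (11.4%), those of Atg7, Atg5, Atg14 and Atg3, against 7.15% of all, and its longer form GTCACGTG, as in lysosomal gene promoters, in 3 (8.57%) against 2.25%. The cyclic AMP response core TGACGT was in 6 (17.1%) against 7.51%. TGATGNAA, a composite site of ATF4 and CHOP, was in 0 member windows against 3.97% of all, and the Atg13 window held none of these 6 motifs. A match is a run of letters and was not tested for binding.

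At 1 h of thapsigargin, 2 of the 35 members rose and 0 fell, while 8.79% of all genes were called (6.61% higher and 2.18% lower). Rb1cc1 had 106, 109, 121 and 109.9 CPM under thapsigargin and 83.9, 84.8, 90.2 and 88.6 CPM untreated at 1 h. All treated libraries were above all untreated ones, with a log2 fold change of 0.36 ± 0.07 (adjusted p = 0.000804). Atg2b had 104, 111, 108 and 103 CPM under thapsigargin and 94.1, 93.3, 95.8 and 93.8 CPM untreated, without overlap but by a small step, 0.17 ± 0.05 (adjusted p = 0.0356). Its call was lost in 7 of the 8 fits that left out 1 library (adjusted p 0.0527 to 0.0955; it held only without thapsigargin replicate 1). Atg13 was not called at this time, at 13.7 ± 1.04 CPM under thapsigargin and 13.5 ± 1.21 CPM untreated (SD, n = 4 each), nor were Ulk1 (-0.23 ± 0.08), Map1lc3b (-0.21 ± 0.09) and Tfeb (-0.05 ± 0.29). Without thapsigargin replicate 2 alone, and also without all libraries of low Y-linked level, the 2 members called were Rb1cc1, higher, and Ulk1, lower. In these fits 1366 of 15464 and 1247 of 15584 genes were called.

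The difference between the 8 h and 1 h effects of thapsigargin was tested as an interaction. It was called in 18 of 35 members, 15 of them positive and 3 negative, against 47.4% of all genes (22.7% positive). The value was 2.23 ± 0.18 for Atg13, 1.14 ± 0.29 for Wipi1, 0.85 ± 0.15 for Nbr1, 0.80 ± 0.17 for Atg4a and 0.79 ± 0.08 for Wipi2. Rb1cc1, called at both times, had 0.47 ± 0.10. The 3 negative values were those of Atg101 (-0.59 ± 0.11), Pik3r4 (-0.43 ± 0.09) and Pik3c3 (-0.31 ± 0.09).

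**Figure D3:**
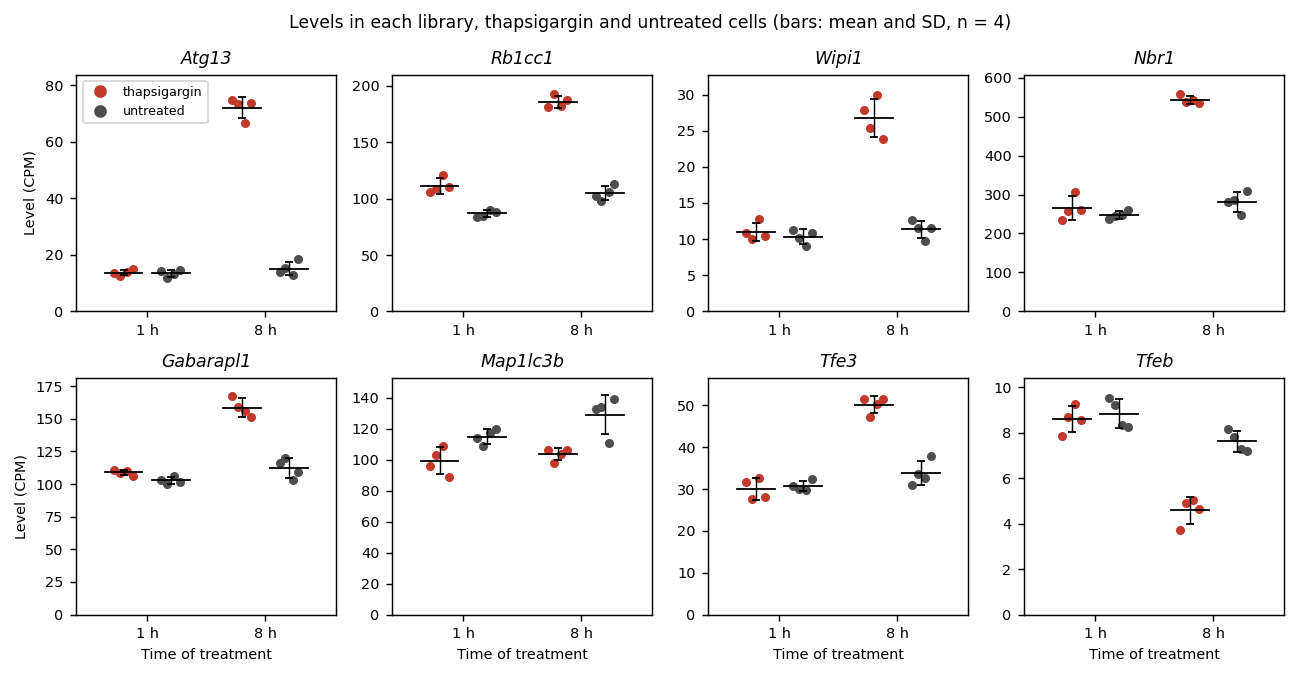
CPM of Atg13, Rb1cc1, Wipi1, Nbr1, Gabarapl1, Map1lc3b, Tfe3 and Tfeb in each library, thapsigargin to the left of untreated at 1 and 8 h, with lines at the means and bars of 1 SD (n = 4). At 8 h the thapsigargin libraries of Atg13 lie at 66.5 to 74.6 CPM and the untreated ones at 12.97 to 18.3 CPM, while at 1 h the groups of that gene lie close together.

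The transcripts behind the leading genes were read from a second deposited table of estimated counts per transcript. For Atg13, the protein-coding transcript Atg13-202 averaged 36.8 ± 6.86 CPM in thapsigargin libraries at 8 h, against 7.35 ± 1.77 CPM in untreated ones (SD, n = 4 each), and Atg13-201 averaged 18.8 ± 5.91 CPM, against 5.86 ± 1.52 CPM untreated. Their shares of the gene's estimated counts were 59.5 ± 9.39% and 30.7 ± 10.1% under thapsigargin, and 47.9 ± 4.89% and 38.2 ± 3.92% untreated, and no test was made of the shares. For Wipi1, Wipi1-202 averaged 14.3 ± 2.32 CPM under thapsigargin and 5.97 ± 1.44 CPM untreated. For Nbr1, the leading transcript Nbr1-206 averaged 166 ± 23.3 CPM under thapsigargin and 82.98 ± 10.01 CPM untreated.

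The IFN-gamma libraries were compared with untreated ones at each of the 4 times. At 1 h of IFN-gamma, 0 members rose and 1 fell, with 1.29% of all genes called (1.08% higher), and the groups did not overlap in 3 members, against 8.93% of all genes. DESeq2 also called 0 higher and 1 lower, and 6 members had an unadjusted p under 0.05. Endothelial and mural markers summed to 12.4 to 18.6 CPM under IFN-gamma and 9.79 to 11.9 CPM untreated. Neuron markers summed to 67.8 to 96.7 CPM under IFN-gamma and 62.7 to 64.5 CPM untreated. Neither sum overlapped between the groups, and their part in the members' values was not tested. The member called was Atg101, with 18.2, 18.6, 18.05 and 20.5 CPM under IFN-gamma and 22.9, 23.95, 24.2 and 22.2 CPM untreated. The groups did not overlap and the log2 fold change was -0.31 ± 0.08 (adjusted p = 0.0285), but the call was lost in 6 of the 8 fits that left out 1 library, and held without IFN-gamma replicate 4 or untreated replicate 4 (adjusted p 0.0694 to 0.128 where lost).

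At 8 h of IFN-gamma, 5 members rose and 2 fell, while 25.2% of all genes were called (13.1% higher). Nbr1 had 366, 366, 401 and 429 CPM under IFN-gamma, against 281, 286, 248 and 309 CPM untreated, a log2 fold change of 0.47 ± 0.11 (adjusted p = 0.000936). Gabarapl1 had 149.5, 145, 157 and 161 CPM under IFN-gamma, against 116, 119.9, 103 and 109 CPM untreated, a log2 fold change of 0.45 ± 0.06 (adjusted p = 8.97e-07). In both genes every IFN-gamma library was above every untreated one. Becn1 had 186, 185, 191 and 204 CPM under IFN-gamma and 165, 154, 159.9 and 161 CPM untreated, again without overlap and with a log2 fold change of 0.26 ± 0.05 (adjusted p = 7.47e-05). Rb1cc1 had 125, 129, 125 and 119 CPM under IFN-gamma and 103, 98.3, 105 and 113 CPM untreated (0.25 ± 0.07, adjusted p = 0.00818). Pik3c3, the lipid kinase itself, had 50.02, 55.6, 57.4 and 51.4 CPM under IFN-gamma and 46.6, 45.6, 44.9 and 47.3 CPM untreated (0.22 ± 0.06, adjusted p = 0.00727). Neither of these 2 genes overlapped between the groups, and the 2 members that fell did so by little. Atg4d, an ATG4 protease gene, had 34.4, 34.1, 38.6 and 37.2 CPM under IFN-gamma and 44.9, 41.1, 41.1 and 39.5 CPM untreated, with a log2 fold change of -0.21 ± 0.06 (adjusted p = 0.0111), a call lost without IFN-gamma replicate 1, IFN-gamma replicate 2 or untreated replicate 1 (adjusted p = 0.078, 0.0859 and 0.0991). Atg2b had 90.2, 98.9, 90.2 and 95.2 CPM under IFN-gamma and 101, 106, 97.5 and 109 CPM untreated, overlapping groups with a log2 fold change of -0.14 ± 0.05 (adjusted p = 0.0469), and its call was lost whichever of the 8 libraries was left out. Ulk1 (0.16 ± 0.08), Map1lc3b (0.04 ± 0.09) and Tfeb (-0.22 ± 0.30) were not called. Lineage markers summed to 4326 to 4746 CPM under IFN-gamma at 8 h and 5728 to 6124 CPM untreated, and neuron markers to 294 to 349 CPM under IFN-gamma and 58.5 to 71.9 CPM untreated, mostly Tubb3. Astrocyte markers summed to 231 to 260 CPM under IFN-gamma and 108 to 142 CPM untreated (1 of 4 tested higher, Slc1a3). Fibroblast and meningeal markers summed to 3.84 to 5.65 CPM under IFN-gamma and 0.143 to 0.355 CPM untreated (Lum, the 1 tested, higher). In none of these 4 lists did the groups overlap. Endothelial and mural sums (13.4 to 14.3 CPM under IFN-gamma and 6.78 to 9.27 CPM untreated) did not overlap either. Nor did microglial and macrophage sums (3.09 to 4.37 CPM under IFN-gamma and 1.33 to 2.18 CPM untreated). The part of these marker shifts in the members' results was not tested. Without the libraries of low Y-linked level 5 members were called, all higher, and 2619 of all 15584 genes.

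At 24 h of IFN-gamma, 2 members rose and 4 fell, with 23.1% of all genes called (10.5% lower). Atg9a, the scramblase of the growing membrane, had 25.1, 30.4, 30.002 and 31.03 CPM under IFN-gamma, against 40.8, 37.5, 37.2 and 40.8 CPM untreated, a log2 fold change of -0.42 ± 0.10 (adjusted p = 0.00147). Atg7 had 17.04, 17.2, 18.6 and 16.2 CPM under IFN-gamma and 22.03, 22.2, 19.8 and 23.7 CPM untreated, a log2 fold change of -0.35 ± 0.08 (adjusted p = 0.00219). In neither gene did the groups overlap, and exons of Atg9a share 31.8% of their bases with Gm29253, a gene on the same strand. Optn had 14.5, 19.4, 15.9 and 16.9 CPM under IFN-gamma and 11.7, 13.2, 12.6 and 14.8 CPM untreated, overlapping groups with a log2 fold change of 0.35 ± 0.09 (adjusted p = 0.00438). The groups did not overlap in 8 of the 35 members, against 25.4% of all genes. Pik3r4 averaged 38.01 ± 2.79 CPM under IFN-gamma and 44.3 ± 1.55 CPM untreated, with -0.22 ± 0.06 (adjusted p = 0.00995), lost without IFN-gamma replicate 1 (adjusted p = 0.0761). Atg2b averaged 89.6 ± 4.19 CPM under IFN-gamma and 104 ± 5.22 CPM untreated, with -0.21 ± 0.05 (adjusted p = 0.00322). Becn1 averaged 172 ± 5.72 CPM under IFN-gamma and 157 ± 5.94 CPM untreated (SD, n = 4 each, for all 3 genes), with 0.13 ± 0.05 (adjusted p = 0.0417), a call lost in 6 of the 8 fits that left out 1 library. The steps in these 3 genes were smaller than those of Atg9a and Atg7. Tfeb had 7.12, 7.54, 8.204 and 6.82 CPM under IFN-gamma and 7.98, 8.56, 7.16 and 19.5 CPM untreated, where untreated replicate 4 stood far above the other 3, and was not called (-0.55 ± 0.28). Neuron markers summed to 158 to 219 CPM under IFN-gamma at 24 h and 56.001 to 67.6 CPM untreated, with 2 of 5 tested called higher (Syt1 and Tubb3). Astrocyte markers summed to 173 to 201 CPM under IFN-gamma and 92.4 to 135 CPM untreated, and fibroblast and meningeal markers to 5.59 to 8.72 CPM under IFN-gamma and 0.239 to 2.88 CPM untreated. The groups did not overlap in these 3 sums but did in that of the lineage markers (4796 to 5735 CPM under IFN-gamma and 5513 to 5997 CPM untreated). Endothelial and mural sums did not overlap either (12.2 to 13.3 CPM under IFN-gamma and 6.26 to 7.61 CPM untreated). The part of these shifts in the members' values was not tested. Without the libraries of low Y-linked level 3 members were called, 1 higher and 2 lower, and 1942 of all 15584 genes.

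At 48 h of IFN-gamma the balance lay on the lower side: 1 member rose and 13 fell, while 36.8% of all genes were called (16.9% higher and 19.9% lower). The median log2 fold change of the members was -0.15, against 0.00 over all genes, and the groups did not overlap in 5 of 35 members, against 19% of all genes. Those 5 were Ulk2, Atg7, Map1lc3b, Atg9a and Atg2b.

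Tfeb, the master regulator of lysosomal genes, had 7.66, 14.97, 21.3 and 14.8 CPM under IFN-gamma at 48 h, against 43.1, 12.1, 47.8 and 38.4 CPM untreated, where replicate 2 was the lowest. The groups overlapped and the log2 fold change was -1.27 ± 0.27 (adjusted p = 0.000334), or -1.56 without untreated replicate 2. Wipi1 had 10.9, 24.7, 25.8 and 20.01 CPM under IFN-gamma, against 36.4, 22.98, 49.2 and 44.9 CPM untreated, also overlapping, with -0.91 ± 0.20 (adjusted p = 0.000376), or -1.09 without untreated replicate 2. In the ULK1 complex, Ulk2 had 100.5, 137, 146 and 127 CPM under IFN-gamma, against 180.0, 154, 193 and 180.4 CPM untreated, with no overlap and -0.47 ± 0.09 (adjusted p = 5.88e-05). Ulk1 was not called, with 30.3, 30.9, 36.9 and 34.4 CPM under IFN-gamma and 34.3, 38.4, 38.9 and 37.9 CPM untreated (-0.18 ± 0.08). The complex's other subunits were not called either.

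Of the genes for membrane supply and PI3P binding, 4 of 5 fell. Besides Wipi1 these were Atg9a, with 25.7, 39.3, 42.4 and 38.4 CPM under IFN-gamma and 56.1, 48.1, 42.5 and 49.5 CPM untreated (-0.43 ± 0.10, adjusted p = 0.000734), Atg2b (-0.31 ± 0.05) and Wipi2 (-0.24 ± 0.05). Of the 5 ATG8 proteins 3 fell. Map1lc3b had 118, 168, 185 and 176 CPM under IFN-gamma, against 219, 201, 217 and 229 CPM untreated, without overlap and with -0.42 ± 0.09 (adjusted p = 0.000458). Map1lc3a had 30.6, 35.02, 46.7 and 37.1 CPM under IFN-gamma and 50.6, 41.9, 45.97 and 49.2 CPM untreated, overlapping, with -0.33 ± 0.11 (adjusted p = 0.0207), a call lost without IFN-gamma replicates 1 or 2 or untreated replicates 1 or 4. Gabarapl2 was called lower at -0.27 ± 0.09, a call lost without IFN-gamma replicate 1 or untreated replicates 3 or 4.

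Atg7, of the conjugation enzymes, had 16.8, 18.4, 20.9 and 17.8 CPM under IFN-gamma, against 25.7, 22.3, 24.2 and 25.2 CPM untreated, with no overlap and -0.40 ± 0.08 (adjusted p = 0.0003). Atg3 was called at -0.19 ± 0.07, lost without IFN-gamma replicates 1 or 4 or untreated replicates 3 or 4. Atg4a had 11.3, 13.8, 14.2 and 14.4 CPM under IFN-gamma and 18.6, 13.1, 22.8 and 20.3 CPM untreated, overlapping, with -0.48 ± 0.12 (adjusted p = 0.00151). Its call was lost without the libraries of low Y-linked level (-0.39, adjusted p = 0.0787). Atg3 (adjusted p = 0.2385), Gabarapl2 (0.1075) and Pik3r4 (0.0594) lost theirs in the same fit. Atg4a and Tfe3 lie on the X chromosome and those 3 genes do not, and the part of chromosome was not tested. Pik3r4 was the only PI3-kinase subunit called (-0.20 ± 0.06, lost without untreated replicates 2 or 4), and Optn the only member called higher (0.31 ± 0.09, groups overlapping). IFN-gamma replicate 1 was the lowest library of its group in 25 of the 35 members, and without it 11 members were called (4135 of all 15432 genes). Between the groups, lineage markers summed to 4428 to 5552 CPM under IFN-gamma and 5167 to 7029.8 CPM untreated, with log2 fold changes of -2.93 for Mbp and -1.94 for Enpp6, both lower, and Olig1 and Olig2 higher. Neuron markers summed to 147 to 213 CPM under IFN-gamma and 69.9 to 85.4 CPM untreated, and fibroblast and meningeal markers to 8.13 to 10.01 CPM under IFN-gamma and 0.123 to 0.891 CPM untreated, neither with an overlap, while the astrocyte sums overlapped (153 to 197 CPM under IFN-gamma and 128 to 199 CPM untreated). Endothelial and mural sums did not overlap (9.28 to 11.3 CPM under IFN-gamma and 3.56 to 8.23 CPM untreated). The part of these shifts in the members' changes was not tested. Without untreated replicate 2, whose marker sum lay within the range of the IFN-gamma libraries, 15 members were called (6441 of all 15422 genes). Without the libraries of low Y-linked level 10 were called, 1 higher and 9 lower, and in a fit of only the 2 groups compared 3 were called, Ulk2, Atg7 and Atg2b. Calls over all genes fell as well, from 5570 of 15135 to 3316 of 15584 and 2041 of 13747 in these fits.

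**Figure D4:**
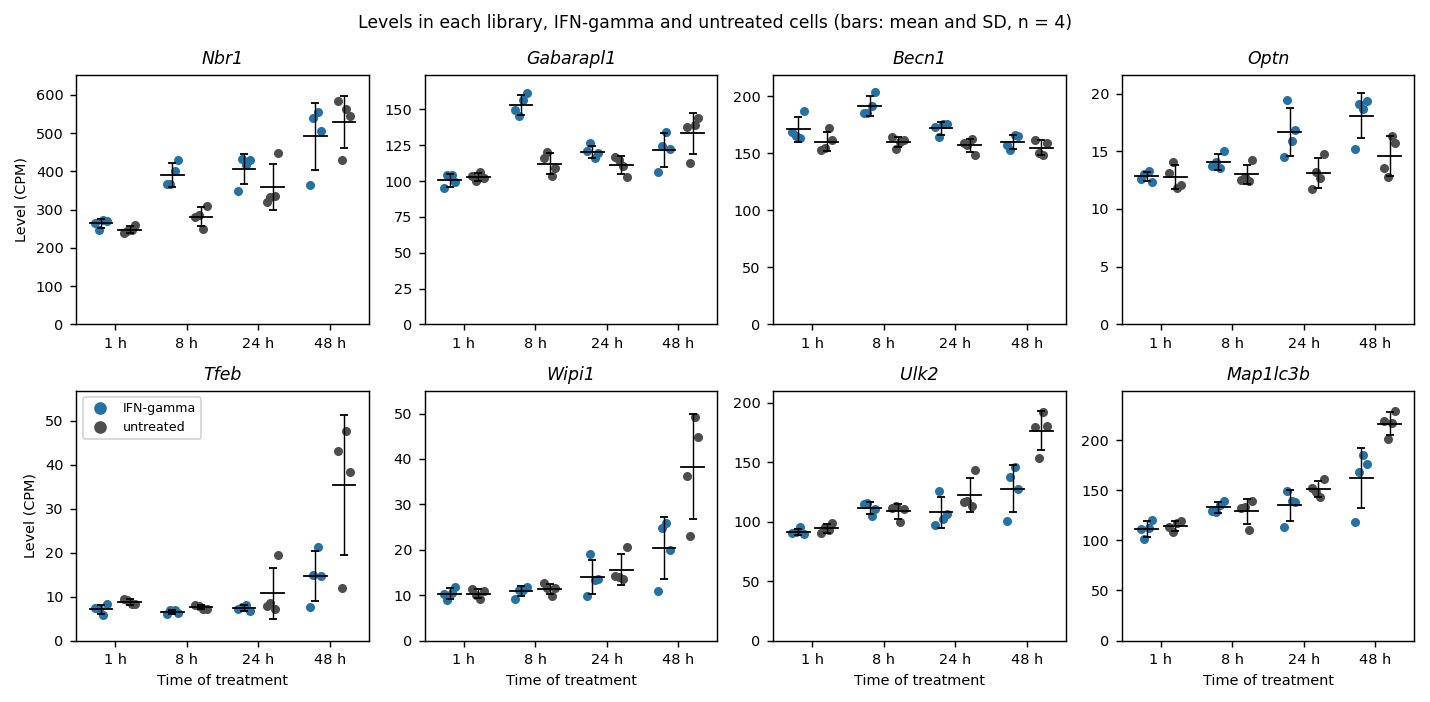
CPM of Nbr1, Gabarapl1, Becn1, Optn, Tfeb, Wipi1, Ulk2 and Map1lc3b in each library at 1, 8, 24 and 48 h, IFN-gamma to the left of untreated, with lines at the means and bars of 1 SD (n = 4). Nbr1 and Gabarapl1 are higher in the IFN-gamma libraries at 8 h, and at 48 h Map1lc3b lies at 118 to 185 CPM under IFN-gamma and 201 to 229 CPM untreated.

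The change of the IFN-gamma effect between 48 h and 8 h was called in 11 of 35 members, all 11 negative, against 17% of all genes (7.2% positive and 9.83% negative). It was -0.84 ± 0.29 for Wipi1, -0.58 ± 0.15 for Nbr1, -0.58 ± 0.09 for Gabarapl1, -0.56 ± 0.17 for Atg4a, -0.50 ± 0.12 for Ulk2 and -0.46 ± 0.13 for Map1lc3b. Rb1cc1, Ulk1, Pik3c3, Wipi2 and Becn1 made up the rest. At 48 h Nbr1 had 491 ± 87.1 CPM under IFN-gamma and 529.9 ± 68.2 CPM untreated, and Gabarapl1 122 ± 11.7 CPM under IFN-gamma and 133 ± 14.2 CPM untreated (SD, n = 4 each), neither called. Of the 16 fits that left out 1 library, 9 lost the call for Wipi1 (adjusted p 0.0541 to 0.111, the highest without untreated 48 h replicate 3), 6 that for Ulk1 (0.0512 to 0.0761), 6 that for Wipi2 (0.0532 to 0.0848), and 1, without untreated 48 h replicate 3, those for Rb1cc1 (adjusted p = 0.0541) and Atg4a (adjusted p = 0.0579). The count was 7 without untreated 48 h replicate 3 and 2 without the libraries of low Y-linked level. Over all genes the calls fell from 2577 of 15135 to 1689 of 15449 and 786 of 15584.

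At 8 h the thapsigargin and IFN-gamma libraries could be set against each other directly, while their comparisons with untreated cells share the same 4 untreated libraries. Of 35 members 18 were higher under thapsigargin and 7 lower, against 61.4% of all genes called, and the groups did not overlap in 27 members, against 60.4% of all genes. Atg13 had 72.1 ± 3.75 CPM under thapsigargin and 16.9 ± 2.21 CPM under IFN-gamma (SD, n = 4 each), with 2.097 ± 0.13 (adjusted p = 1.17e-16) on the log2 scale. Wipi1 differed by 1.297 ± 0.21, Wipi2 by 0.73 ± 0.06, Atg4a by 0.71 ± 0.12 and Nbr1 by 0.48 ± 0.11, all higher under thapsigargin. Lower under thapsigargin were Pik3c3 (-0.48 ± 0.06), Atg101 (-0.44 ± 0.08), Map1lc3b (-0.36 ± 0.09), Ulk1 (-0.31 ± 0.08), Pik3r4, Atg2a and Gabarapl2. The call for Gabarapl2 was lost in 6 of the 8 fits that left out 1 library (adjusted p 0.054 to 0.1145; it held without thapsigargin replicate 1 or IFN-gamma replicate 4), and that for Atg5, higher under thapsigargin, without thapsigargin replicate 2 or IFN-gamma replicate 4 (adjusted p = 0.0545 and 0.073). Gabarapl1, called higher than untreated under either treatment, did not pass the test between them (0.05 ± 0.06, 95% interval -0.08 to 0.18).

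Without treatment, most members rose over the 48 h in culture. Against 1 h, 3 members were higher and 1 lower at 8 h (6.93% of all genes called, 4.77% higher and 2.16% lower), 15 higher and 1 lower at 24 h (28.3%), and 28 higher and 0 lower at 48 h (62.3%, with 31.9% higher). The median log2 fold change of the members at 48 h was 0.37, against 0.00 over all genes, and the groups did not overlap in 25 of 35 members, against 52.1% of all genes. At 8 h Atg2a (0.37 ± 0.09), Rb1cc1 (0.27 ± 0.07) and Pik3r4 (0.21 ± 0.06) were the higher ones and Uvrag (-0.26 ± 0.07) the lower, and the count was 1 when replicate 1 of the 1 h group or replicate 4 of the 8 h group was left out. It was 2 when replicate 2 or 3 of the 1 h group or replicate 2 of the 8 h group was left out. In the order given, these fits called 588 of 15391, 538 of 15467, 615 of 15424, 778 of 15465 and 744 of 15444 genes. At 24 h, 11 members were called without replicate 4 of that group, the highest library of its group in 19 of the 35 members. That fit called 2314 of 15289 genes.

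The members that rose most by 48 h were Tfeb and Wipi1. Tfeb had 43.1, 12.1, 47.8 and 38.4 CPM at 48 h and 9.54, 9.24, 8.35 and 8.24 CPM at 1 h, with no overlap and a log2 fold change of 1.99 ± 0.28 (adjusted p = 2.30e-07). Wipi1 had 36.4, 22.98, 49.2 and 44.9 CPM at 48 h and 11.3, 10.1, 9.07 and 10.9 CPM at 1 h, again with no overlap, and 1.88 ± 0.21 (adjusted p = 3.51e-09). Nbr1 rose by 1.100 ± 0.11, Map1lc3b by 0.92 ± 0.09, Ulk2 by 0.91 ± 0.09, Atg13 by 0.82 ± 0.13 and Gabarap by 0.79 ± 0.11. By role, 4 of 5 ULK1 complex members, 4 of 6 of the PI3-kinase complex, all 5 membrane genes, 5 of 6 conjugation enzymes, 3 of 4 ATG4 proteases, 4 of 5 ATG8 proteins, 1 of 2 receptors and both transcription factors were called higher. Lineage markers were called higher in 3 of 7 and lower in 4 of 7 over the same interval, and their part in the rise of the members was not tested. Without untreated 48 h replicate 2, 30 members were called, and 9711 of 15422 genes. The untreated 48 h libraries are also those set against IFN-gamma at 48 h, and the untreated 1 h libraries those set against both treatments at 1 h.

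IFN-gamma libraries at 48 h and 1 h, a comparison added after the data had been seen, share no library with the untreated course. In them 22 members were higher at 48 h and 0 lower, while 50.3% of all genes were called (25.2% higher). Tfeb had 14.7 ± 5.59 CPM at 48 h and 7.12 ± 1.05 CPM at 1 h of IFN-gamma, a log2 fold change of 1.04 ± 0.29 (adjusted p = 0.00275), and Wipi1 had 20.4 ± 6.78 and 10.3 ± 1.15 CPM at the same times (SD, n = 4 each), with 0.97 ± 0.21 (adjusted p = 0.000189). Both sets of libraries overlapped in these 2 genes, whereas Nbr1 (0.90 ± 0.11) and Atg13 (0.68 ± 0.13) did not overlap. All 5 members of the ULK1 complex were among the 22, but the call for Atg101 was lost in 5 of the 8 fits that left out 1 library (adjusted p 0.0593 to 0.0703) and that for Ulk1 without replicate 3 of either time (adjusted p = 0.102 without that of 1 h and 0.0937 without that of 48 h). The call for Gabarapl2 was lost without replicate 3 of 1 h (adjusted p = 0.0607) and that for Atg9a without replicate 3 of 48 h (adjusted p = 0.0599). Without the libraries of low Y-linked level 19 members were called, and the calls for Tfeb (adjusted p = 0.0703), Ulk1 (0.303), Gabarapl2 (0.313) and Atg101 (0.376) were lost. That fit called 6027 of 15584 genes.

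The wider pathway was read from 5 lists around the members, counted without a test of the list. The counts stand beside 60.6% of all genes called under thapsigargin at 8 h (29.6% higher and 31% lower) and 8.79% at 1 h. Under thapsigargin at 8 h all 5 factors of the ATF4 and CHOP arm of the stress response rose, Trib3 by 8.62 ± 0.35, Atf3 by 6.81 ± 0.37, Ddit3 (which encodes CHOP) by 6.42 ± 0.16 and Cebpb by 4.604 ± 0.35. Of 15 other cargo and organelle receptors 5 rose and 2 fell, with Sqstm1 first, then Ccpg1, a receptor for the endoplasmic reticulum (0.88 ± 0.17), and Tax1bp1 (0.44 ± 0.05), and Rtn3 lower (-0.41 ± 0.07). Of 33 lysosomal genes of the CLEAR network, a set of TFEB target genes, 6 rose and 15 fell, among them Scpep1 (0.85 ± 0.13), Galns (-0.80 ± 0.12), Cln3 (-0.73 ± 0.14) and Ctsa (-0.72 ± 0.13). Of 14 tested genes for autophagosome fusion with the lysosome 4 rose and 6 fell, with log2 fold changes of 0.83 ± 0.09 for the fusion adaptor Plekhm1 and -0.71 ± 0.06 for the SNARE gene Stx17. Of 29 tested mTORC1 and nutrient sensing genes 11 rose and 7 fell, with 1.77 ± 0.08 for Sesn2, 1.397 ± 0.49 for Deptor and 1.33 ± 0.11 for Ddit4, all inhibitors of mTORC1, and -1.11 ± 0.11 for Lamtor4, a Ragulator subunit. At 1 h the counts higher and lower were 3 and 0 for ATF4 and CHOP, 1 and 1 for CLEAR genes, 4 and 0 for mTORC1 genes, 0 and 2 for the receptors, and 0 and 0 for fusion, where 0 genes had an unadjusted p under 0.05.

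Under IFN-gamma the share of all genes called was 1.29% at 1 h, 25.2% at 8 h, 23.1% at 24 h and 36.8% at 48 h (19.9% lower). Of the 33 CLEAR genes 3 rose and 1 fell at 8 h, 4 rose and 6 fell at 24 h, and 4 rose and 24 fell at 48 h, and at 1 h 0 were called (3 at an unadjusted p under 0.05). Lamp2, a lysosomal membrane protein, was higher at 8 h, with 328, 329.9, 309 and 312 CPM under IFN-gamma and 136, 129, 128 and 134 CPM untreated (1.28 ± 0.07, adjusted p = 8.30e-18), at 24 h (1.03 ± 0.07) and at 48 h (0.70 ± 0.07). Ctsz (-0.91 ± 0.13), Lamp1 (-0.71 ± 0.10) and the proton pump subunit gene Atp6ap1 (-0.50 ± 0.11) were lower at 48 h. Of the 15 receptors 3 rose and 1 fell at 8 h, led by Calcoco1 (0.76 ± 0.14), 1 rose and 0 fell at 24 h, and 0 rose and 7 fell at 48 h, led by Retreg1, a receptor for the endoplasmic reticulum (-1.09 ± 0.14). Sqstm1 had 129, 174, 188 and 158 CPM under IFN-gamma at 48 h and 231, 164, 221 and 208 CPM untreated, with -0.34 ± 0.10 (adjusted p = 0.00745), a call lost without IFN-gamma replicate 1 (adjusted p = 0.0751). Of the 29 mTORC1 genes 2 rose and 4 fell at 8 h, 2 rose and 1 fell at 24 h and 3 rose and 9 fell at 48 h, and Rragd, a Rag GTPase gene, was higher at all 3 times (0.65 ± 0.09, 0.66 ± 0.09 and 0.60 ± 0.10). Only Ddit4 of that list was called at 1 h (-0.54 ± 0.11). Of the 14 fusion genes 2 rose and 1 fell at 8 h, 0 rose and 1 fell at 24 h and 0 rose and 5 fell at 48 h, with Rubcn, an inhibitor of the PI3-kinase complex, lower at each (-0.24 ± 0.09, -0.26 ± 0.09 and -0.38 ± 0.09). The ATF4 and CHOP factors called higher were 0 at 1 h, 4 at 8 h, 5 at 24 h and 3 at 48 h, with 0 lower. In untreated cells, where 62.3% of all genes were called between 48 h and 1 h (31.9% higher), 26 CLEAR genes, 13 fusion genes, 13 receptors, 14 mTORC1 genes and 1 ATF4 and CHOP factor were higher at 48 h than at 1 h, and 2, 0, 1, 5 and 3 were lower.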

How the data were processed

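RNA was measured in 40 libraries, 4 in each of 10 groups set by the labels. The gene table is the authors' deposited whole-number read counts for 39056 gene ids, and the isoform table their deposited estimated counts for 112588 transcripts. Per the submitters' processing notes the tools were edgeR, kallisto, featureCounts and STAR; their versions, and the genome build, annotation and strand setting, were not given in the sources used here. Replicate pairs differed by more than sampling noise (lowest chi-square per degree of freedom 5.46), which does not show that they came from separate cultures. Each library was counted as 1.

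Counts were filtered with filterByExpr, leaving 15135 genes, scaled by TMM and fitted with edgeR's quasi-likelihood model of 10 group means (R 4.3.3, edgeR 4.0.16, limma 3.58.1, 30 residual degrees of freedom, prior count 0.125 for fold changes). The SE is the log2 fold change divided by the square root of F. P-values were adjusted by Benjamini-Hochberg over all genes tested. The test was also run on simulated counts with changes planted in a small share of genes. That run cannot check scaling or error rates where most genes are called, as after thapsigargin at 8 h. The libraries held 13165483 to 22651092 reads. After thapsigargin at 8 h the SE was 0.31 for Tfeb, 0.20 for Wipi1 and 0.12 for Atg4a. The spread of each gene was estimated over all 10 groups, and that of Tfeb was largest in untreated cells at 48 h. Exon bases are the union of a gene's exons in GENCODE M21, and promoter windows came from RefSeq on GRCm38.p6. Transcript values are estimated counts scaled as CPM, and the isoform table was also summed per gene and rounded.

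The 35 members, the pathway and marker lists and the tests were chosen with earlier results of these data known, and 1 lineage marker is not reported here. Values in every library are given for up to 8 called members of largest absolute log2 fold change per treatment comparison. Pik3r4, Atg2b and Becn1 at 24 h of IFN-gamma are given as mean and SD instead. Ulk1, Map1lc3b, Tfeb and Sqstm1 have values in every library in some comparisons, and up to 4 called genes are named per pathway list. The alternatives were RLE size factors, DESeq2 1.42.0, a fit of only the groups compared, all genes with a read, library numbers 1 to 20 or 21 to 40 alone or as a block, the Y-linked level as a covariate, leaving out libraries of low Y-linked level, the isoform table, and leaving out each replicate.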

Additional observations from a re-analysis of the deposited data

Results flagged for a closer look

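In 15 of 230 groups of 4 libraries examined for 23 named genes, 1 library stood far from the other 3; chance alone flags about 1 in 20 groups, which is 11.5 of 230. Untreated 24 h replicate 4 was the high library for Ulk2 (143 CPM), Atg13 (21.1), Wipi1 (20.7), Nbr1 (448) and Tfeb (19.5). Untreated 8 h replicate 3 was the low library for Ulk2 (99.5 CPM) and Sqstm1 (104). Untreated 1 h replicate 4 stood apart for Pik3r4 (42.8 CPM) and Atg9a (33.9). In thapsigargin libraries the library apart was replicate 3 at 8 h for Atg13 (66.5 CPM), replicate 1 at 8 h for Wipi2 (179) and replicate 4 at 1 h for Atg4a (12.5). In IFN-gamma libraries it was replicate 3 at 1 h for Atg4a (13.9 CPM), replicate 2 at 24 h for Sqstm1 (135) and replicate 1 at 48 h for Optn (15.2).

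The effect of thapsigargin at 8 h differed from its effect at 1 h, by the interaction test of edgeR's quasi-likelihood model, in 18 members. The log2 difference was 2.23 for Atg13, 1.14 for Wipi1, 0.85 for Nbr1, 0.8 for Atg4a, 0.79 for Wipi2, 0.64 for Optn, 0.64 for Map1lc3a, 0.61 for Tfe3, 0.54 for Atg12, 0.52 for Atg10, 0.47 for Rb1cc1, 0.45 for Uvrag, 0.42 for Gabarapl1, 0.24 for Atg2b and 0.22 for Becn1. It was -0.59 for Atg101, -0.43 for Pik3r4 and -0.31 for Pik3c3. The effect of IFN-gamma at 48 h differed from that at 8 h in 11 members, by -0.84 for Wipi1, -0.58 for Nbr1, -0.58 for Gabarapl1, -0.56 for Atg4a, -0.5 for Ulk2, -0.46 for Map1lc3b, -0.34 for Rb1cc1, -0.34 for Ulk1, -0.29 for Pik3c3, -0.23 for Wipi2 and -0.21 for Becn1.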

How the results depend on the processing

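None of the calls on named members changed direction under an alternative. Of the 28 members called after thapsigargin at 8 h, 18 kept their call under all 18 alternatives, against 2 of 14 for IFN-gamma at 48 h, 1 of 7 at 8 h, and 0 at 1 and 24 h. In the main fit 195, 3811, 3493 and 5570 of all 15135 genes were called for IFN-gamma at 1, 8, 24 and 48 h. For the IFN-gamma effect at 48 h minus that at 8 h there were 2577. For thapsigargin at 1 h there were 1331, and for untreated cells at 8 h against 1 h 1049. From the isoform table the number of members called was 0 for IFN-gamma at 1 h, 4 at 8 h, 3 at 24 h, 5 for the IFN-gamma effect at 48 h minus that at 8 h, and 2 for untreated cells at 8 h against 1 h. All genes called there were, in that order, 142, 2906, 2441, 1490 and 702 of 19264. With no filter on low counts, which adds tests, the number of members called was 0 for IFN-gamma at 1 h, 7 for that difference of IFN-gamma effects, 1 for thapsigargin at 1 h and 2 for untreated 8 h against 1 h. All genes called there were 150, 1749, 805 and 611 of 36537. With only the libraries numbered 1 to 20 the number of members called was 0 for IFN-gamma at 1 h, 6 at 8 h, 1 at 24 h, 9 at 48 h and 0 for thapsigargin at 1 h. The 1 at 24 h was not among the 6 called with all libraries. The 6 at 8 h were 2 higher and 4 lower, and 3 of them were also called with all libraries, which gave 5 higher and 2 lower. All genes called in the libraries numbered 1 to 20 were, in the order given, 80, 2933, 1526, 3039 and 179 of 15435. In the libraries numbered 21 to 40 the number of members called was 0 for IFN-gamma at 1 h, 3 at 8 h, 1 at 24 h, 6 at 48 h and 1 for thapsigargin at 1 h. All genes called there were 138, 2456, 2547, 4198 and 832 of 15052. In fits of only the groups compared 3 members were called for IFN-gamma at 48 h and 3 for the difference of IFN-gamma effects. Calls over all genes fell in these fits too, to 2041 of 13747 and 917 of 14271. Without the libraries of low Y-linked level the number of members called was 0 for IFN-gamma at 1 h, 3 at 24 h and 2 for the difference of effects. Over all genes 121, 1942 and 786 of 15584 were called. With the Y-linked level as a covariate 0 members were called for IFN-gamma at 1 h, and 172 of 15135 genes. The causes of these changes were not tested, and some of these fits also hold fewer libraries. Leaving out 1 library at a time gave 1 to 2 members called for thapsigargin at 1 h, 24 to 26 at 8 h, 18 to 19 for its effect at 8 h minus 1 h, and 24 to 25 for thapsigargin against IFN-gamma at 8 h. For IFN-gamma it gave 0 to 1 at 1 h, 5 to 7 at 8 h, 4 to 7 at 24 h, 10 to 17 at 48 h, 7 to 16 for the effect at 48 h minus 8 h (7 without untreated 48 h replicate 3) and 19 to 23 for 48 h against 1 h. For untreated cells it gave 1 to 5 at 8 h, 11 to 15 at 24 h and 28 to 30 at 48 h, each against 1 h. No paired analysis was possible because the labels carry only library numbers, and replicate numbers were given in accession order.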
